A study of Mus musculus with 87 samples.

Results

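ETn elements are endogenous retroviruses of the mouse that move by copying their RNA into DNA, which is then inserted elsewhere in the genome, and insertions of this family are a known source of spontaneous mouse mutations. KRAB zinc finger proteins bind such elements and recruit KAP1, a corepressor that brings repressive histone methylation to them. The Chr4-cl deletion removes a cluster of KRAB zinc finger genes on chromosome 4, among them Rex2, Zfp600 and Gm13051. The comparison described here asked whether mice that lack this cluster on both alleles carry more new ETn insertions in tail DNA than littermates that keep 1 allele.

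The animals were 13 offspring of a single mating, called mating 1, for which the juvenile tail had been sequenced after capture of ETn ends. They were picked out by their labels, as tail samples with the recorded ancestry BA27227 x BA27232, 1 sample per animal, and make up 13 of 87 samples in the series. The 5 KO animals were labelled Chr4-cl KO/KO and the 8 KO/WT animals Chr4-cl KO/WT. All were on a B6x129X1/SvJ (F2) background, as were the mother BA27227 (KO/WT) and the father BA27232 (KO/KO), whose ear DNA was used as a filter. The mating gives no WT offspring, so the comparison group already carries the deletion on 1 allele, as does every animal studied here. Per the study's methods the deletion was made in B6 embryonic stem cells, and all 13 animals share 1 pair of parents. Males were the KO animal C6733 and the KO/WT animal C6927, and their reads on chromosome Y made up 0.156 and 0.158% of the total against 0.00774 to 0.0117% in the 11 females. Tissue cannot be checked from genomic DNA, and exact ages were not given in the sources used here.

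ETn capture-seq enriches DNA fragments that hold the outer end of an ETn long terminal repeat, the element that flanks both sides of a copy. Of the 1274 ETn probes in the study's design, the most frequent for each end are printed here because they define what the assay can catch. The capitals mark the terminal TG and CA of the repeat.
5′ LTR probe: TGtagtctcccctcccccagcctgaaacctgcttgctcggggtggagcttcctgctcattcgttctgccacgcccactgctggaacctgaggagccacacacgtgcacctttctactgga
3′ LTR probe: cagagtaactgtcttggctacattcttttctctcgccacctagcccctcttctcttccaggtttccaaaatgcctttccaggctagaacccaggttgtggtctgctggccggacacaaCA
A read counts toward a region where it maps uniquely and its mate lies in an ETn repeat. Depth was 763614 to 865136 such reads in the 13 offspring and 698731 and 696331 in the mother and the father. Values are given as RPM, a region's reads divided by this total and scaled to 1000000, and a region was called at 10 RPM or more, which is 7.64 to 8.65 reads in the offspring. A private insertion was a region called in 1 animal, not called in any other animal or cell line of the series, and without a read in either parent.

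The genotype labels were checked first, from the sites at which the cluster was cut. Both guide RNAs matched the reference at 1 site each, on the minus strand of mm9, at chr4:144973820-144973839 and chr4:147227524-147227543. The last 20 bases of each guide matched, and the capitals mark the adjoining PAM read from the genome.
Guide 1 of Chr4-cl: gcaaaggggctcctcgatggaTGG
Guide 2 of Chr4-cl: gtttatggccgtgctaaggtcAGG
The interval between them is 2253724 bp long and holds 22 protein-coding genes of the annotation. Summed over the interval, the KO animals C6765, C6733, C7414, C7415 and C7417 held 141, 108, 152, 147 and 180.2 RPM. The 8 KO/WT animals held 1262 to 1345 RPM with a median of 1295, and no KO animal came near them. Group values were 146 ± 25.8 RPM in KO (SD, n = 5) and 1303 ± 31.9 in KO/WT (n = 8), a ratio of 8.94. The KO father held 91.9 RPM and the KO/WT mother 1231 RPM, each below the lowest offspring of its label and nearer to those than to the other genotype.

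**Figure D1:**
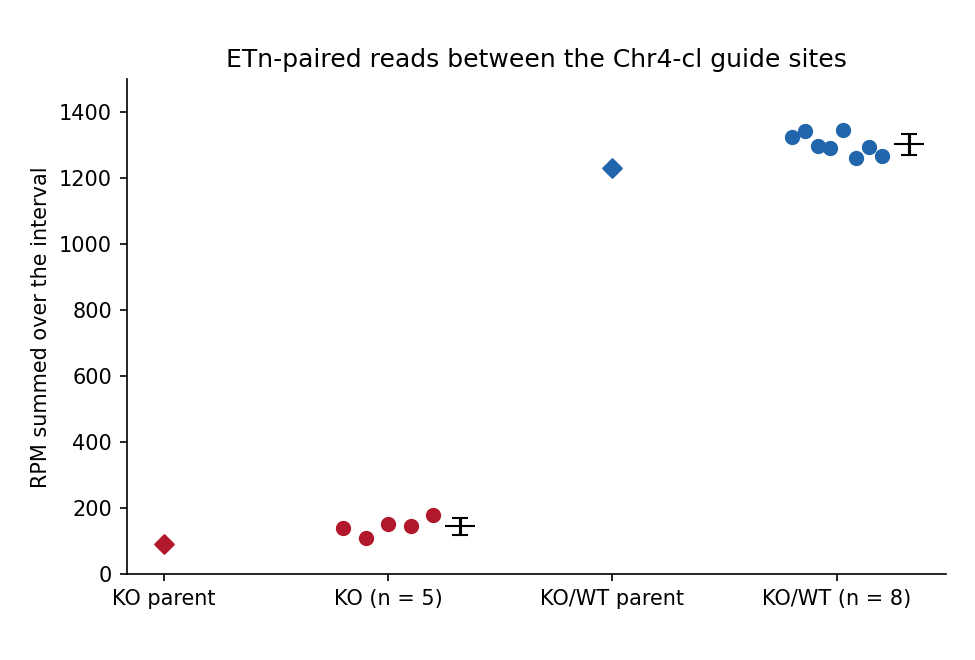
ETn-paired reads between the Chr4-cl guide sites, in RPM, for each mating 1 animal (circles, offspring; diamonds, parents; bars, mean and SD). The 5 KO animals sit between 108 and 180.2 RPM, and the 8 KO/WT animals between 1262 and 1345 RPM.

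Loci that were called in a parent were then compared between genotypes. They numbered 2687, and 15 differed by edgeR's quasi-likelihood test at an adjusted p under 0.05, which is 0.558% of those tested. On chromosome 4 it was 14 of 151 loci (9.27%) and on all other chromosomes 1 of 2536 (0.0394%). Values of the 2 genotypes did not overlap at 33 of the 2687 loci (1.23%). All 6 loci inside the interval that a parent had were called lower in KO. The other 8 on chromosome 4 were higher in KO, by 1.31 to 1.41 times, and lay 440073 to 8066524 bp from the nearer guide site.

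The locus with the lowest adjusted p lies at chr4:145019453-145021591 and overlaps the annotated gene Gm13227. It held 8.30 to 11.1 RPM in the KO animals and 292 to 350.02 RPM in the KO/WT animals. The fitted log2 difference was -5.03 ± 0.09 (SE) with an adjusted p of 5.1e-13 by edgeR's quasi-likelihood test. Next came chr4:145080501-145083011, 17651 bp from Gm13225, where C6765, C6733, C7414, C7415 and C7417 held 5.93, 8.61, 11.1, 9.99 and 16.05 RPM. KO/WT animals held 387 to 444 RPM there, 40.1 times the KO mean, and the reads left in KO lay near the calling threshold. At chr4:146917867-146925152, near Gm16503, the means were 91.03 ± 19.6 RPM in KO and 448 ± 14.6 in KO/WT. A weaker locus, chr4:146815715-146816638, had no read in any of the 5 KO animals and 27.8 ± 4.17 RPM in KO/WT, at least 7.56-fold higher when 3 reads per KO sample are taken as the floor (adjusted p 4.5e-07 by edgeR).

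Outside the interval, the called loci of chromosome 4 differed by small and similar amounts. They lay -9.16 to 9.20 Mb from the middle of the interval, and loci among them that were not called differed less. The log2 differences of these uncalled loci ran from -0.14 to 0.15. The uncalled locus at 1.27 Mb, nearer than the called loci outside the interval on that side, had 0.04. At chr4:141597384-141600417, which overlaps Tmem51 and Gm13053, KO animals held 570.4 ± 9.01 RPM and KO/WT animals 431.4 ± 15.7, with a log2 difference of 0.40 ± 0.02 and an adjusted p of 7.6e-08 by edgeR. The KO father held 587 RPM and the KO/WT mother 402 RPM at that locus. At chr4:147689588-147692275, overlapping Gm13206, the means were 528 ± 27.5 and 379 ± 11.7 RPM, and the father and mother held 534 and 405 RPM. At both loci the father lay closer to the KO mean and the mother closer to the KO/WT mean. The only called locus elsewhere was chr9:106387985-106388641, a short distance from Rrp9, a gene of ribosomal RNA processing, with 28.2 ± 4.96 RPM in KO and 16.7 ± 3.001 in KO/WT (adjusted p 0.041 by edgeR). That call was lost in 10 of the 13 fits that each left out 1 animal. With DESeq2, 20 loci were called, 16 of them on chromosome 4.

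**Figure D2:**
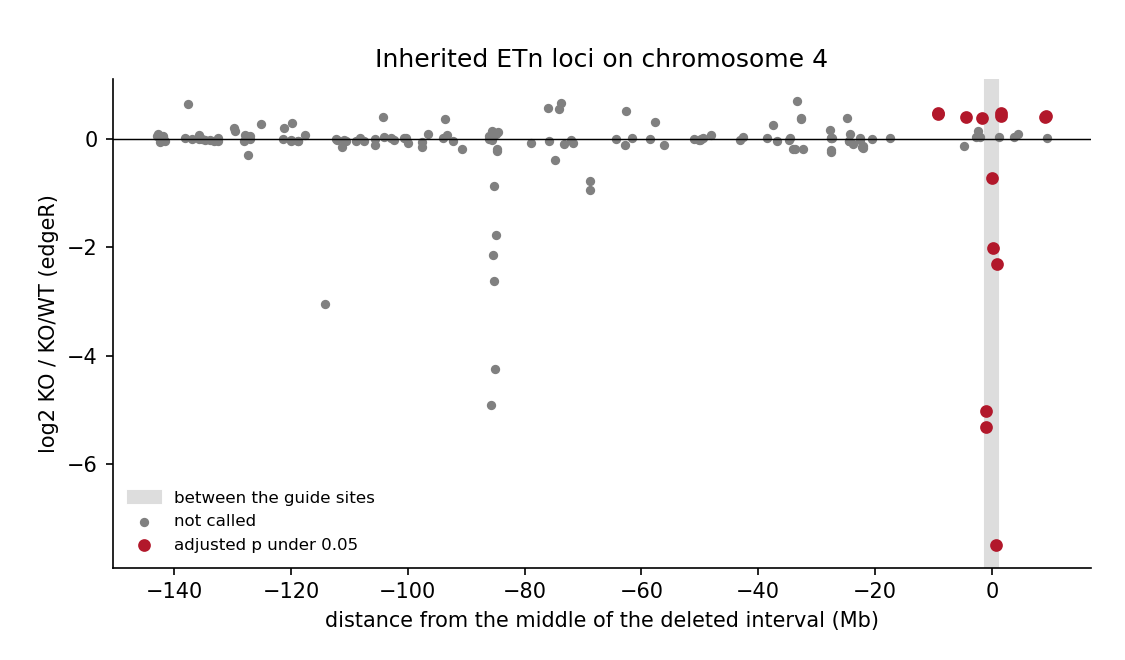
The 151 inherited ETn loci of chromosome 4, with their distance in Mb from the middle of the deleted interval and the log2 difference between KO and KO/WT from edgeR. Called loci (red) are negative inside the interval (grey band) and lie between 0.39 and 0.49 on both sides of it.

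ETn content inherited from the parents was counted next. Each animal had 2527 to 2583 of the 2687 loci, or 94.05 to 96.1%, and 2374 loci were called in both parents and all 13 offspring. KO animals had 2556 ± 16.3 inherited loci (n = 5) and KO/WT animals 2566.5 ± 10.2 (n = 8). The exact two-sided permutation test of the rank sum gave p = 0.600 (adjusted over 3 measures per animal 0.600). Inside the deleted interval KO animals had 2 to 4 of 6 loci and KO/WT animals 5 or 6. By their labels KO animals lack the interval, and the source of the reads behind their calls there was not tested. Leaving the interval out gave 2553 ± 15.9 and 2561 ± 10.6. At a threshold of 5 RPM the difference was larger, with means of 2702 in KO and 2734 in KO/WT animals (exact p 0.033, adjusted 0.065).

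A set of inherited loci known to be present in a single copy served as a yardstick for read support. These 24 autosomal loci held 100 RPM or more in 1 parent and no read in the other, 17 from the mother and 7 from the father, on 10 chromosomes. Single-copy loci with fewer reads were left out by that cut-off, which can raise the level found. They had been passed on in 157 of 312 possible cases, or 50.3% (exact 95% interval 44.6 to 56%, which takes no account of linkage between loci on a chromosome). KO animals had received 45.8% and KO/WT animals 53.1% of them. In carriers such a locus held a median of 183 RPM (quartiles 148.8 and 216), against 428 RPM at the 2374 loci that all had. In animals without a call it never exceeded 5.78 RPM. Only 1 of the 157 values was low, at 11.1 RPM in C7417, at a locus next to another ETn locus on chromosome 11.

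Against that background the 13 animals carried 252 private insertions, 183 in KO and 69 in KO/WT animals. KO animals had 23 (C6765), 87 (C6733), 0 (C7414), 30 (C7415) and 43 (C7417). KO/WT animals had 40 (C6767), 0 (C6772), 0 (C6920), 0 (C6921), 0 (C6922), 1 (C6925), 2 (C6927) and 26 (C7416). No animal fell between 2 and 23, and the 6 animals at 23 or above held 249 of the 252. High and low animals were present in both genotypes, so the groups overlapped.

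The means were 36.6 ± 32.2 in KO (SD, n = 5) and 8.63 ± 15.5 in KO/WT (n = 8), and the medians 30 and 0.5. The exact one-sided permutation test of the rank sum gave p = 0.058 (adjusted over the 3 measures 0.122), where the smallest p these group sizes allow is 0.00078. The difference therefore did not pass the threshold of 0.05 by this test. It passed the threshold when the KO animal C7414 was left out (exact adjusted p 0.021) and when calls required 20 RPM (8.20 against 1.38 insertions, exact adjusted p 0.048). Without C6733, the difference in means was 15.4 insertions in place of 27.98 (exact adjusted p 0.282).

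**Figure D3:**
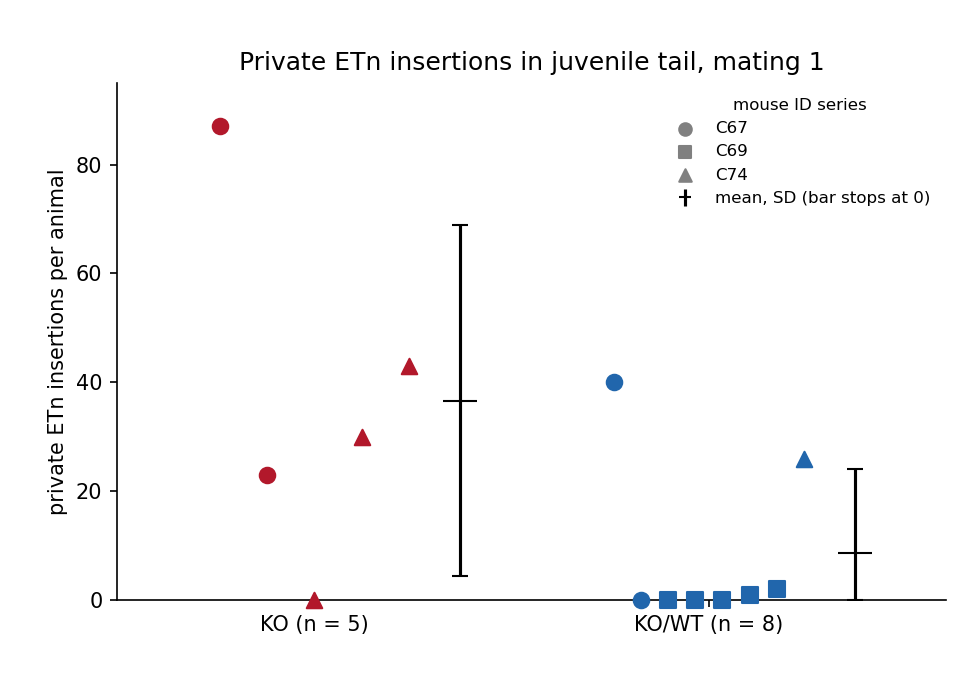
Private ETn insertions in each juvenile tail of mating 1, by genotype, with the mean and SD in black; marker shapes give the first characters of the mouse ID. KO animals range from 0 to 87 and KO/WT animals from 0 to 40, and the 5 animals with C69 IDs have 0 to 2.

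Mouse IDs came in 3 series, which the labels do not explain, and private insertions differed between the series. Among IDs starting with C67, KO animals had 23 and 87 and KO/WT animals 40 and 0. Among IDs starting with C74, KO animals had 0, 30 and 43 and the KO/WT animal 26. The C69 series held 5 of the 8 KO/WT tails, with 0 to 2 insertions each, and no KO tail. In C67 and C74 together, the means were 36.6 in KO (n = 5) and 22.0 in KO/WT (n = 3). Permuting genotypes within the series gave an exact one-sided p of 0.333, and the smallest p this allows is 0.042. In C74 alone the KO mean, 24.3, was below the KO/WT value of 26. The 3 KO offspring of the same parents with C69 IDs were sequenced from ear and not tail, and had 0, 0 and 4 private insertions. Their labels give them as male, while their chromosome Y shares of 0.00516 to 0.00677% were below those of the 11 female tails and far below those of the 2 males. The labels also number the KO libraries 61 to 67 and the KO/WT libraries 68 to 75, so the order of these numbers and genotype cannot be told apart. The KO samples of C6765 and C6733, with the lowest numbers, were registered apart from the other 11. Without both, the means were 24.3 insertions in KO (n = 3) and 8.63 in KO/WT (n = 8), a difference of 15.7 with an exact adjusted p of 0.509.

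The insertions were then weighted by their reads. Private insertions summed to 441 RPM in C6765, 1434 in C6733, 0 in C7414, 521 in C7415 and 769 in C7417. In KO/WT animals the sums were 589 RPM in C6767, 423 in C7416, 23.4 in C6927, 10.4 in C6925 and 0 in the other 4. Group values were 633 ± 527 and 131 ± 236 RPM, with an exact two-sided permutation p of 0.082 (adjusted 0.122). Depth was similar in the 2 genotypes, with total reads of 815252 ± 16459 in KO and 805499 ± 30076 in KO/WT animals. Regions with a single read, a measure of scattered background, numbered 7428 ± 1193 in KO and 6933 ± 946 in KO/WT animals. They ran from 5928 to 9412 over all 13. C6733, which had the most private insertions, had 6340, and C7417, with 43 private insertions, had 9412. Whether this background goes with the private counts was not tested.

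Single private insertions had little read support. Their median was 14.98 RPM in KO and 12.6 RPM in KO/WT animals, and 14.2 RPM overall (quartiles 12.2 and 19.7). The overall median was 7.75% of the single-copy level, and the highest private insertion reached 23.3% of it. By animal, the median was 15.4 RPM in C6765, 15.99 in C6733, 14.4 in C7415 and 14.8 in C7417, and 12.6 in C6767 and 12.1 in C7416 of the KO/WT animals. The 2 KO/WT medians were thus below the 4 KO medians, with no test of this difference. None of the 252 was as high as 50 RPM, 52 were at 20 RPM or more (41 of 183 in KO, 22.4%, and 11 of 69 in KO/WT, 15.9%) and 140 lay between 10 and 15 RPM, just above the threshold. At a threshold of 5 RPM KO animals had a mean of 96.6 and KO/WT animals 22.9. The same 6 animals were high at that threshold, with 69 to 227 insertions, and the other 7 had 1 to 7.

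**Figure D4:**
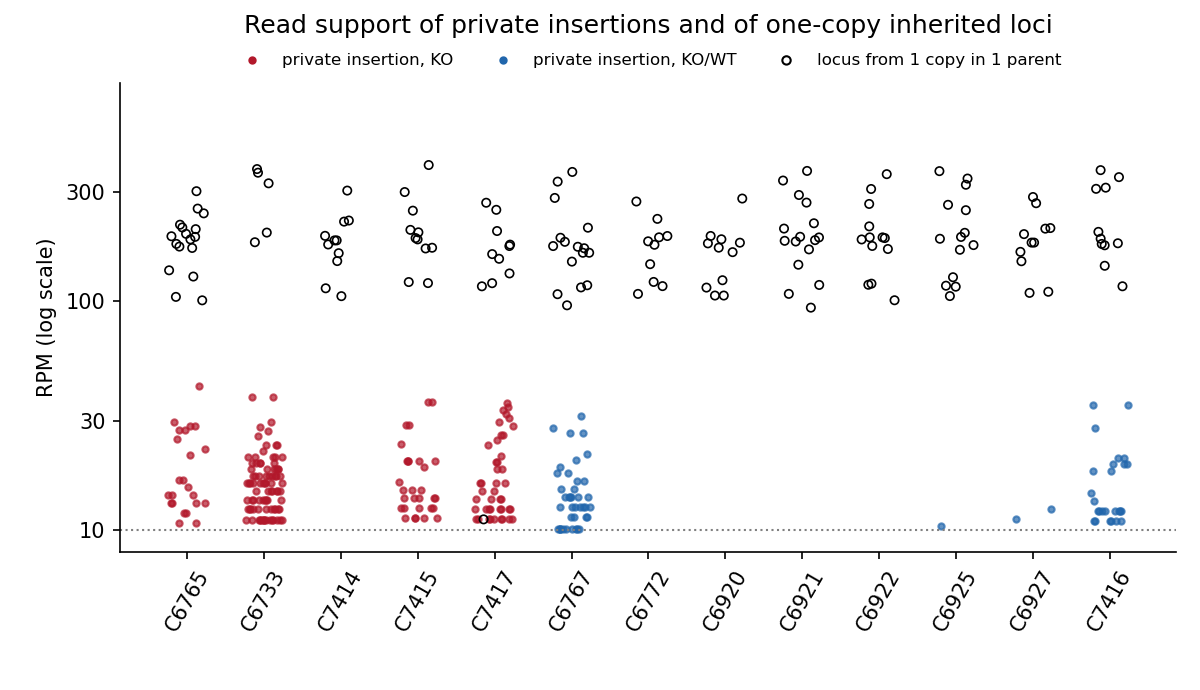
Read support on a log scale of RPM for each private insertion (filled) and for each inherited locus present in a single copy in 1 parent (open), in the 13 offspring. Private insertions reach at most 42.7 RPM, and all open circles but 1 lie above them. Open loci were chosen at 100 RPM or more in a parent and private ones at 10 RPM, which sets part of the gap.

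Reads at private insertions were found again, in part, in further tail samples of the same animal. By definition these loci had no parental read and no call in another animal, so few reads elsewhere were partly set beforehand. Of the 252 loci, 240 had no read in any other animal. The exception with the most was the only call of C6925, a region of 59 bp at chr17:83632116-83632174 in which 34 other animals had a read. A second library of the tail of C7415 had a read at 30 of its 30 insertions and on its own gave 26 private insertions, 17 of them called in both. The adult tail of C7416 had a read at 18 of 26 insertions. In C6733 the adult tail had a read at 20 of 87, and brain, blood, kidney and testis had 0 of 87 each. Offspring of C6765 and C6733 (2 animals) and of C7416 (8 animals) had no read at any private insertion of these parents. The definition also bars a call in offspring, and allowing such calls changed no private count.

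None of the 252 private insertions had a match to an ETn probe within 1000 bp in the reference, a count that the filter on reads in the parents largely fixes. Regions were a median of 473 bp wide, 59 to 958 bp. GC content in 300 bases about the middle had a median of 43.0% in both genotypes, where the genome has 41.8%. The middle lay inside a gene for 122 of 252 (48.4%, exact interval 42.1 to 54.8%), and 41.2% of genome bases are in genes. It was 50.8% (43.3 to 58.3%) in KO and 42.0% (30.2 to 54.5%) in KO/WT animals. These intervals cover counting error only, and insertions of 1 animal are not independent animals. In all, 130 regions lay between genes, 94 in introns of protein-coding genes, 11 overlapped a coding exon and 10 another part of an exon of such a gene. Those 11 are 4.37% of the 252, and coding exons make up 1.40% of genome bases. The 2 shares are not alike, because any overlap of a whole region was counted and not its middle.

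The highest private insertion of each animal fell in or near genes of varied function. In C6765 it lay at chr2:35636453-35637022, in an intron of Ttll11, a tubulin-modifying enzyme of the tubulin tyrosine ligase-like family, with 42.7 RPM from 36 reads. In C6733 it lay at chr15:73401695-73402199, in a non-coding part of an exon of Dennd3, an activator of Rab GTPases, with 38.1 RPM. An equal value was found in the same animal at chr7:99922096-99922756, in an intron of Rab30, a Rab GTPase of the Golgi. In C7415, regions at chr12:85939936-85940406, 3075 bp from Abcd4, a cobalamin transporter, and at chr9:4163184-4163764, between genes, both had 36.2 RPM. In C7417 it lay on the X chromosome at chrX:134060030-134060744, 44403 bp from Il1rapl2, with 35.8 RPM. All were well below the single-copy level of 183 RPM.

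In KO/WT animals the highest insertions, at most 35.1 RPM, lay just below the highest of each KO animal that had any. C7416 had 35.1 RPM both at chr12:4185419-4185855, in an intron of Adcy3, an adenylate cyclase of olfactory neurons, and at chr15:8784669-8785233, 123905 bp from Slc1a3, a glial glutamate transporter. It also had 27.8 RPM at chr3:65306877-65307410, near 4931440P22Rik. C6767 had 31.5 RPM at chr3:100754348-100754913, in an intron of Ttf2, a transcription termination factor, and 27.7 RPM at chr11:104406951-104407379, in an intron of Cdc27, a subunit of the anaphase-promoting complex. The remaining animals had only weak regions, at chr19:56178254-56178631 in C6927 (12.3 RPM, 170110 bp from Tcf7l2, a Wnt effector) and the narrow one in C6925 given above.

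Regions that overlapped a coding exon were found in 3 KO animals and 2 KO/WT animals, 6 and 5 in number. The highest were at Aff3 (chr1:38247840-38248268, C7417, 28.4 RPM), which encodes a nuclear protein of transcription, and Krt78 (chr15:101778278-101778720, C6733, 28.3 RPM), an epithelial keratin. Trps1, a GATA-type repressor needed for hair and skeleton, followed in the KO/WT animal C7416 (chr15:50663038-50663695, 19.3 RPM). Next came Mcm3, part of the replicative helicase, in C7417 (chr1:20801910-20802467, 18.5 RPM). Lower ones overlapped Hal, a histidine-degrading enzyme, in C7415 (chr10:92959169-92959910, 14.98 RPM), and Dst, a cytoskeletal linker, in C6733 (chr1:34178979-34179566, 14.8 RPM). The 200 bases about the middle held 166 coding bases at Mcm3, 65 at Dst and 0 at Hal, where only an outer part of the region overlapped the exon. The reference at 3 of these is printed to show what lies at the middle of the read cluster, on the plus strand of mm9, with coding bases in capitals.
Aff3, chr1:38247955-38248154: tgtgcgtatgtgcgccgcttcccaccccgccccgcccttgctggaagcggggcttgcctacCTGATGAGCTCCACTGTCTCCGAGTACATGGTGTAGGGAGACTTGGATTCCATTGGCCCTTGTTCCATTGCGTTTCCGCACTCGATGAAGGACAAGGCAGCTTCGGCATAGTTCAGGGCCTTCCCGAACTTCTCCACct
Krt78, chr15:101778400-101778599: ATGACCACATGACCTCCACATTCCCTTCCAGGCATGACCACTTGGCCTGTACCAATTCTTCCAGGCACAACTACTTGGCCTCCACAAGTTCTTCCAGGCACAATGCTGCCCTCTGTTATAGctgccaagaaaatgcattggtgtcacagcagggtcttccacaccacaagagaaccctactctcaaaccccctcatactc
Trps1, chr15:50663267-50663466: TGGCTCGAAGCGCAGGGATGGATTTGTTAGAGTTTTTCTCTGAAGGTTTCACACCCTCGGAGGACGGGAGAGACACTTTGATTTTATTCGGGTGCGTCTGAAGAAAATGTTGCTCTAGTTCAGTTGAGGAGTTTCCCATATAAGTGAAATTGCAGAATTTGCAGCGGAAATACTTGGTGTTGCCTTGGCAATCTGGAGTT
The exact point of an insertion is not known from the read clusters, so the windows do not show which base was hit. The list of 10 genes in which an ETn insertion is known to cause a mouse mutation (Fas, Cacng2, Hk1, Adcy1, Ptf1a, Fig4, Mip, Bloc1s5, Fbxw4 and Zhx2) held 0 private insertions. Of all 22225 protein-coding genes, 113 held the middle of one (0.508%), so a count of 0 among 10 genes says nothing particular about this list.

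Littermates shared 2 further loci that had no read in the parents. The first, between genes at chr6:51549777-51550984, held 267 RPM in the KO animal C7417 and 263 and 289 RPM in the KO/WT animals C6921 and C6925. The second, at chr11:46034231-46035278, held 262 RPM in C6927 and 244 RPM in C7416, both KO/WT, and overlapped a coding exon of Cyfip2, a regulator of actin assembly. These values lie in the range of the single-copy loci and not in that of the private insertions. Of the carriers, C6921, C6925 and C6927 had at most 2 private insertions, while C7417 had 43 and C7416 had 26. The reference at the middle of the second cluster is printed for the same reason as above, with coding bases in capitals.
Cyfip2, chr11:46034655-46034854: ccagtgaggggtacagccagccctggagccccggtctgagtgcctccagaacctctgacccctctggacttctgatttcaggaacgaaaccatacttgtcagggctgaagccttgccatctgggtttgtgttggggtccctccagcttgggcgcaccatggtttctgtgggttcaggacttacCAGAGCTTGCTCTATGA

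Private insertions were found on every chromosome but Y. Chromosome 2 had 26, chromosome 1 had 23 and chromosome 4 had 21. The deleted interval held 0, but by their labels KO animals lack it on both alleles. Reads assigned to it still summed to 108 to 180.2 RPM in KO animals, from a source that was not tested. The interval also spans only 2253724 of the 155630120 bp of chromosome 4. Chromosome X, singled out after its value was seen, had 5, or 1.98% (exact interval 0.647 to 4.57%), where it makes up 6.28% of the length. All 5 were in the KO animals C6733, a male, and C7417. These animals had 87 and 43 private insertions, and KO animals held 183 of the 252. On autosomes the counts ran from 6 on chromosome 13 to 26 on chromosome 2, and each autosome had insertions in 4 to 6 animals and in both genotypes.

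**Figure D5:**
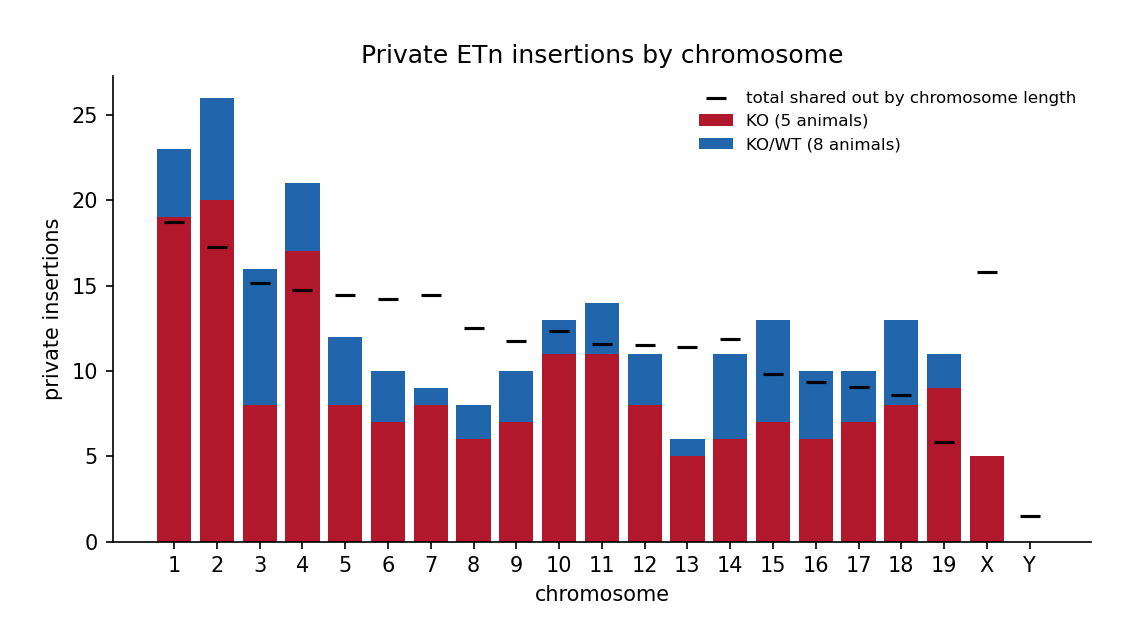
Private insertions per chromosome in the 5 KO and 8 KO/WT animals (stacked bars), with black marks for the 252 insertions shared out by chromosome length. Chromosome 2 has 26, X has 5 and Y has 0.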

How the data were processed

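Genomic DNA of juvenile tails had been enriched with RNA probes for ETn LTR ends (SureSelect QXT) and sequenced as paired 50 bp reads. Per the study's methods, the authors mapped mates separately to mm9 with Bowtie, dropped duplicate reads with samtools, retained reads with a unique position and a mate in an ETn repeat, and merged reads within 1000 bp with bedtools. The sources used here give no tool versions. Each deposited file holds raw read counts per merged region of 1 sample, not normalized and not pooled. No molecular identifiers were used.

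Counts were divided by each sample's total. Called regions of different samples within 1000 bp were treated as 1 locus, over the 76 samples that represent 74 mice and 2 cell lines. In the study, regions close to an annotated or known polymorphic ETn copy were left out as well. Here a match to a probe (blastn, E-value 1e-10) stood in for that annotation, as an alternative only. Genes came from GENCODE vM1 on NCBIM37, the assembly of mm9. Per-animal measures were compared by exact permutation tests of the rank sum, one-sided for the number of private insertions as in the study, with Benjamini-Hochberg adjustment over 3 measures. Loci were compared with edgeR 4.0.16 (quasi-likelihood test, TMM) in R 4.3.3 and, as an alternative, DESeq2 1.42.0. The fit was tested on simulated data. Shares have exact (Clopper-Pearson) 95% intervals, which cover counting error only.

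Named insertions were the highest in each animal, the 5 highest in each genotype and up to 6 in coding exons, and named inherited loci up to 6 on chromosome 4 and up to 6 elsewhere with the lowest adjusted p. The animals, lists and tests were chosen with earlier results of these data known. Alternatives changed the threshold, depth, filters on parents and other animals, joining distance, test, sex, ID series, tissue, normalization and each animal in turn.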

Additional observations from a re-analysis of the deposited data

Results flagged for a closer look

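Of 16 sets of values examined, 8 measures in each genotype, 3 held an animal far from the rest of its genotype, where chance gives about 1 in 20. The KO animal C6733 had 2527 inherited loci, and the next lowest KO animal 2561. The same animal had a median of 327 RPM at the single-copy loci it carried, and the next highest KO animal 191. It carried 5 of the 24 such loci, and the other 12 offspring 10 to 17. C6733 was also the KO animal with the most private insertions, and its part in the comparison of genotypes is given by the values without it. The KO animal C6765 had the highest depth of its genotype, 843579 reads, against 812911 in the next, and its 23 private insertions were below the KO mean.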

How the results depend on the processing

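Differences are KO minus KO/WT means. The number of private insertions differed by 27.98 and kept its direction and, by adjusted p, its side of the threshold in 30 of 32 alternative settings. The exceptions were 20 RPM, where the difference was 6.83 insertions with an exact adjusted p of 0.048, and leaving out C7414 (0.021). Some of the 30 returned the same counts and the same p as the main setting. Before adjustment the exact p was under 0.05 in some of the 30 and not in others. Leaving out each animal gave differences of 15.4, without C6733, to 37.1, without C7414 (exact adjusted p 0.021 to 0.282). Summed RPM behaved likewise, with 502 in all, 190.5 RPM at 20 RPM (exact adjusted p 0.048) and 302 to 661 with each animal left out. Inherited loci differed by -10.5, and by -12.8 to -3.25 with each animal left out. The difference was -31.7 at 5 RPM (exact p 0.033, adjusted 0.065) and -14.4 at 20 RPM (exact p 0.097, adjusted 0.097). At 100 RPM it was -14.65 (exact p 0.042, adjusted 0.126). No animal had a private insertion at 100 RPM, so the other measures in that adjustment could not differ. Splits by ID series were added after seeing the data. In C74 alone, with 1 KO/WT animal, the difference turned to -1.67 private insertions and 9 inherited loci, and the cause was not tested. Females alone gave a difference of 14.4 private insertions, adding the 3 ear samples gave 14.8, and leaving out C6765 and C6733 together gave 15.7. The 15 loci that differed became 14 to 20 under other settings of the fit and 11 to 23 with each animal left out, 23 without C6733, of which 9 lay off chromosome 4. Excluding ETn-like sequence, counting further samples of other animals and allowing calls in descendants changed no private count. No paired analysis was possible because the labels give no replicate numbers that pair animals across genotypes. A count of 7.64 to 8.65 reads at the threshold limits what weaker insertions can be seen.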

Other observations

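Of 113 protein-coding genes that held the middle of a private insertion, 2 held more than 1, in different animals; they were singled out after their values were seen. Abca4, a transporter of photoreceptors, had one in C7417 (KO, chr3:121749747-121750291, 30.9 RPM, a non-coding part of an exon) and one in C7416 (KO/WT, chr3:121836664-121837155, 14.5 RPM, an intron). Mll3, a histone methyltransferase, had intronic insertions in the KO animals C6765 (chr5:24822044-24822686, 29.6 RPM) and C7415 (chr5:25002288-25002641, 12.5 RPM). The 5 lower regions that overlapped a coding exon were at Tpm1, a tropomyosin, in C7417, Ubr4, a ubiquitin ligase, Narg2 and Pde1b, a phosphodiesterase, in C6767, and Rit1, a small GTPase, in C7416, with 10.1 to 13.9 RPM.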
